A study of Bos taurus with 6 samples.

Results

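The genes described here make cholesterol or sense it: HMGCS1, IDI1, FDPS, FDFT1, SQLE, EBP and INSIG1. The 7 genes were chosen by their symbols, and the choice was made with measured values of these arrays known, namely the wide spread of HMGCS1 between arrays of the same group. That spread is therefore given as a description, with no test. Matching the symbols to the platform annotation found 6 of the 7 genes, carried by 9 of the 24016 probe sets tested; no probe set carried the symbol IDI1. HMGCS1 had 2 probe sets, FDFT1 had 3, and FDPS, SQLE, EBP and INSIG1 had 1 each.

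The study asked how the oviduct and uterus of a hormonally stimulated heifer affect the transcripts of the embryo. Simmental heifers were synchronized, superovulated (stimulated to release many oocytes) and inseminated, and blastocysts were collected on day 7. The superovulated group, with 3 arrays, held blastocysts that stayed in the stimulated donors until collection. The synchronized group, also with 3 arrays, held embryos of equally superovulated donors, which were flushed on day 2 at the 2-cell stage and moved by endoscope into recipients that had been synchronized but not superovulated. Both groups thus descend from stimulated donors, 9 heifers on each side, and only the synchronized embryos were flushed and transferred early. The sources used here do not give the number of embryos or animals behind an array. P-values here set a group difference against the spread between these arrays. That spread need not equal the spread between animals or embryos, and part of it may be technical.

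Animal cells make cholesterol from acetyl-CoA through mevalonate, isoprenoid diphosphates, squalene and lanosterol. When sterols in the endoplasmic reticulum run low, the sensor SCAP carries the transcription factor SREBP-2 to the Golgi, where it is cut and released to switch on the genes of the pathway together; INSIG proteins hold SCAP back when sterols are plentiful. HMGCS1, SQLE and INSIG1 are classical targets of this switch. Preimplantation embryos need sterols for new membrane, and cumulus and granulosa cells, which surround the oocyte before the embryo forms, make sterols and steroids as well.

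Signals are log2 values on a scale where most probe sets lie near background: array medians were between 2.75 and 2.8, and 94.1% of probe sets had a mean at or below 4. A signal of log2 4 is used below as the boundary of measurable signal. The number of probe sets above it ran from 1457 to 1894 on the superovulated arrays and from 973 to 1850 on the synchronized arrays; the top counts of both groups were those of superovulated array 3 (1894) and synchronized array 2 (1850). Values of a gene are listed for superovulated arrays 1, 2 and 3, then for synchronized arrays 1, 2 and 3. Differences are superovulated minus synchronized, and group values are mean ± SD over 3 arrays.

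Of the 9 probe sets, 2 exceeded log2 4 on at least 1 array, the brighter HMGCS1 probe set and that of EBP. The other 7 stayed between 2.35 and 3.42 on all 6 arrays. Their ranges over the arrays were 0.05 to 0.46, where the median range over the 21135 probe sets below log2 4 on every array was 0.16. For FDPS, FDFT1, SQLE and INSIG1 these arrays therefore gave no level that could be told from background. HMGCS1 and EBP, the genes with signal, had different patterns from each other.

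**Figure D1:**
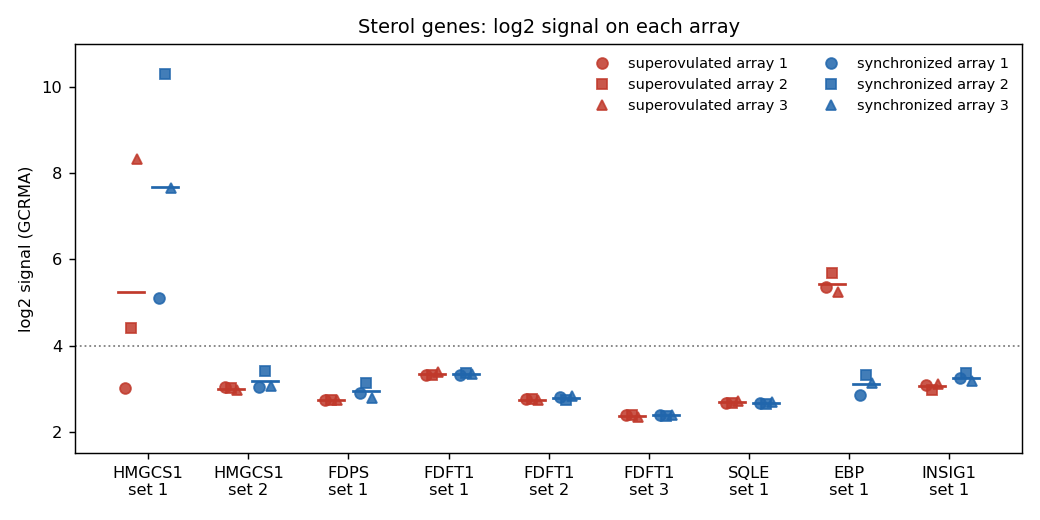
Log2 signal of the 9 probe sets (horizontal axis, each gene's brightest probe set first) on the 6 arrays, with superovulated arrays in red, synchronized arrays in blue, a marker shape per array and a bar at each group mean; the dotted line is log2 4. HMGCS1 spreads from 3.01 to 10.31 across both groups, EBP separates the groups, and the other 7 probe sets lie between 2.35 and 3.42.

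HMGCS1 (NCBI gene 407767) encodes the cytosolic HMG-CoA synthase, which joins acetyl-CoA to acetoacetyl-CoA at the entry to the mevalonate pathway. Its brighter probe set read 3.01, 4.40 and 8.34, then 5.11, 10.31 and 7.65. Each group held a high and a low array, and the groups overlapped. The gap between the lowest and the highest array was 7.30 log2 units, or 158-fold. The lowest value lay below log2 4, where the scale is compressed, so this fold is uncertain. The pooled SD within groups, 2.68, ranked 1 of 24016 probe sets.

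The HMGCS1 group means were 5.25 ± 2.76 and 7.69 ± 2.60. Their difference was -2.44 with a 95% interval from -7.51 to 2.63, and it did not pass (limma adjusted p = 0.636). The interval allows a large difference in either direction. The other HMGCS1 probe set read 3.03, 3.02 and 2.96, then 3.04, 3.42 and 3.06. It lay near background throughout, so the wide range rests on 1 of the gene's 2 probe sets. Synchronized array 2 was the highest array on both.

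EBP (NCBI gene 515569) encodes the sterol isomerase that shifts a ring double bond late in the pathway, after lanosterol. Its probe set read 5.36, 5.69 and 5.24, then 2.86, 3.31 and 3.13. All 3 superovulated arrays lay above all 3 synchronized ones. EBP rose from 3.10 ± 0.23 to 5.43 ± 0.23, a difference of 2.33 (95% interval 1.89 to 2.77), or 5.03-fold (limma adjusted p = 0.0195). The synchronized mean was at background, where this kind of signal is compressed, so the size of the rise is uncertain.

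EBP was the 1 call among the 9 probe sets; over all probe sets 0.716% were called. Without 1 array, EBP passed in 1 of 6 fits, that without synchronized array 2 (adjusted p = 0.0479), and in the other 5 the adjusted p lay between 0.0537 and 0.0898. After a second quantile normalization the difference was 2.07 (adjusted p = 0.0740). In bulk samples such as these, fewer cells of a type and less RNA per cell cannot be told apart.

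FDPS (NCBI gene 281156) makes farnesyl diphosphate, the last step before the pathway splits towards sterols and other isoprenoids. It read 2.74, 2.74 and 2.73, then 2.90, 3.13 and 2.78. The superovulated arrays were all lower, by a mean of 0.20 that did not pass (adjusted p = 0.636). Synchronized array 2 was the highest, as it was for HMGCS1.

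FDFT1 (NCBI gene 281767), squalene synthase, commits farnesyl diphosphate to sterols. Its brightest probe set read 3.33, 3.33 and 3.38, then 3.33, 3.36 and 3.35, and the other 2 lay between 2.35 and 2.83. SQLE (NCBI gene 526535), squalene epoxidase, read 2.68, 2.67 and 2.72, then 2.68, 2.64 and 2.69. The groups overlapped on all 4 of these probe sets, with differences between -0.04 and 0.02.

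INSIG1 (NCBI gene 511899), the sterol-regulated anchor of SCAP, read 3.09, 2.97 and 3.11, then 3.26, 3.36 and 3.17. It was lower on every superovulated array, by a mean of 0.21 (95% interval -0.37 to -0.04), and did not pass after adjustment over all probe sets (adjusted p = 0.557).

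In all, 1 of the 9 probe sets (EBP) lay higher on every superovulated array and 3 lay lower (the dim HMGCS1 probe set, FDPS and INSIG1). Over all probe sets the corresponding shares were 5.42% and 7.89%. The 3 that lay lower were near background and differed by no more than 0.21. The median difference over the 9 was -0.04, against -0.02 over all probe sets.

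Whether the other genes follow HMGCS1 was examined over the 6 arrays, with the brightest probe set of each gene. The median Pearson r over 5 genes was 0.61. None of the 5 passed, with 0 adjusted and 0 unadjusted p-values below 0.05 for r. FDFT1 had the highest r, 0.819 (Spearman rho 0.880, exact permutation p = 0.05 for both, adjusted p = 0.25 for both), over a range of 0.05 log2 units. Without the 2 arrays farthest from the HMGCS1 median, superovulated array 1 and synchronized array 2, its r was 0.912.

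INSIG1 gave r = 0.631 (rho 0.714, exact p = 0.186 and 0.136) and FDPS r = 0.606 (rho 0.348, exact p = 0.181 and 0.511), over ranges of 0.39 and 0.40; without the same 2 arrays r was 0.234 and -0.382. SQLE gave r = -0.129 (rho 0.029, exact p = 0.861 and 0.994), and 0.896 without those arrays, over a range of 0.08. Adjusted over the 5 genes, these p-values were between 0.31 and 0.994. These 4 genes had no measurable signal, so their correlations describe small movements near background. The median r was -0.11 after a second quantile normalization, 0.03 after centring each array on its bright probe sets, 0.07 with the probe sets of a gene averaged and 0.28 without synchronized array 2.

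EBP was the 1 other gene of the 7 with signal, on the superovulated arrays alone, and over the 6 arrays it did not run with HMGCS1. Its r was -0.451 (rho -0.429, exact permutation p = 0.353 and 0.419, adjusted 0.441 and 0.639), and 0.210 once each group's mean had been taken away (exact permutation within groups, p = 0.694). On superovulated array 3, where HMGCS1 was 3.94 log2 units above array 2, EBP was lower than on array 2 (5.24 against 5.69). On synchronized array 2, HMGCS1 stood 5.20 above array 1 and EBP 0.45 above it. The synchronized EBP values stood in the same order as those of HMGCS1. They were at background, where the scale is compressed, so they cannot show how closely EBP follows HMGCS1 there.

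**Figure D2:**
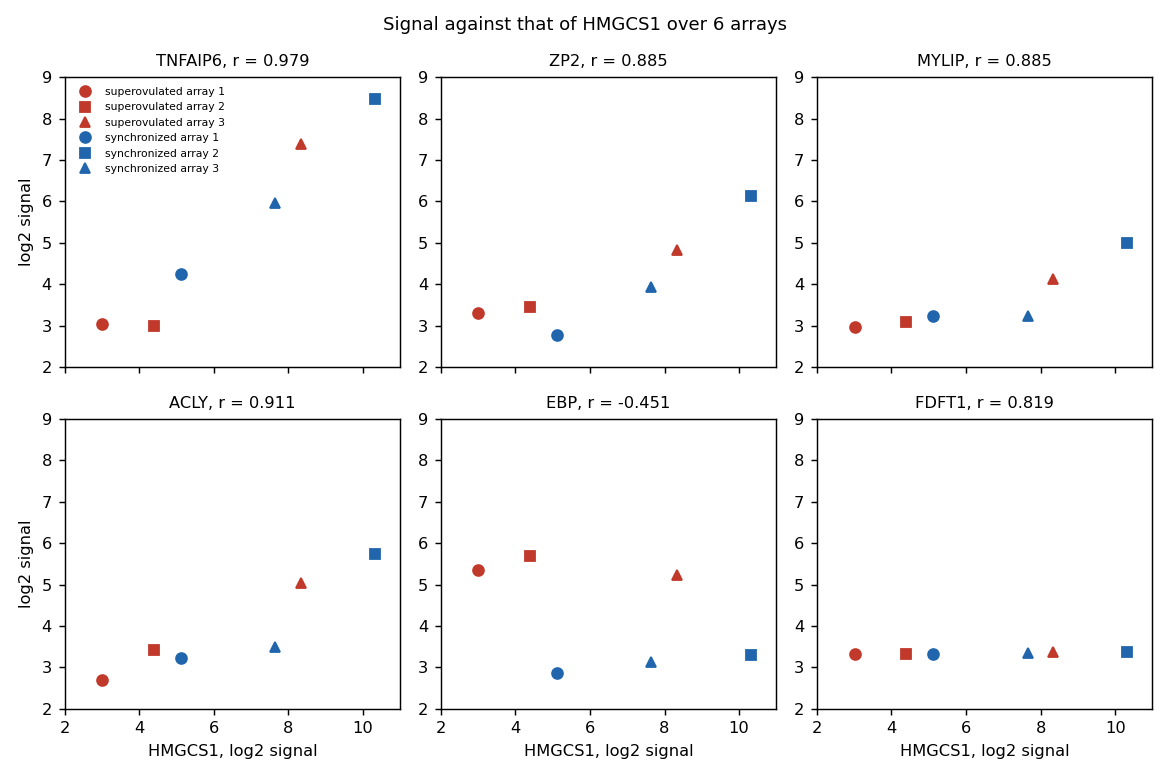
Log2 signal of 6 genes (vertical axes) against that of the brighter HMGCS1 probe set (horizontal axes) on the 6 arrays, coloured by group with a marker shape per array and Pearson r above each panel. TNFAIP6 climbs with HMGCS1, while ZP2, MYLIP and ACLY exceed log2 4 on superovulated array 3 and synchronized array 2 alone. EBP splits by group, and FDFT1 stays between 3.33 and 3.38.

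The rest of the pathway was read from 3 lists: synthesis from acetyl-CoA to cholesterol, sterol sensing, and uptake and handling. They hold 58 genes, of which 40 had a probe set under their symbol. EBP was the 1 gene called of the 40 (2.5%), 0 were called lower, and 39 did not pass. Over all 9155 genes read in the same way, 1.32% were called, so a single call is near the background. The median difference over the 40 was 0.00, with 21 differences above 0. Only 9 of the 40 genes exceeded log2 4 on any array, and 31 stayed below it on all arrays.

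Among the 16 synthesis genes measured, 5 exceeded log2 4. Besides HMGCS1 and EBP they were ACAT2, MSMO1 and LSS. ACAT2, the thiolase that supplies acetoacetyl-CoA for HMGCS1, read 3.91, 4.33 and 4.16, then 4.13, 4.12 and 4.13. It was nearly level, while HMGCS1, the next enzyme, ran over 7.30 log2 units. ACAT2 lay close to log2 4, near the part of the scale that is compressed, so its true range is uncertain.

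MSMO1, the methylsterol oxidase that acts before EBP, read 3.77, 3.75 and 4.32, then 3.44, 4.50 and 3.45. It was highest on superovulated array 3 and synchronized array 2, the arrays where HMGCS1 was highest in each group. LSS, which cyclizes squalene epoxide to lanosterol, exceeded log2 4 on synchronized array 1 alone, at 4.31 against 2.75 to 2.92 elsewhere, on 1 of its 3 probe sets.

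In the sterol sensing list 3 of 10 genes exceeded log2 4 and 0 passed. SREBF1 encodes SREBP-1, the relative of SREBP-2 best known for fatty acid genes. It read 5.60, 5.68 and 5.50, then 3.38, 4.16 and 4.17, with no overlap. The difference was 1.69 (95% interval 1.07 to 2.31, adjusted p = 0.0805).

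INSIG2, the anchor of SCAP whose gene is not a classical SREBP target, read 6.09, 5.72 and 5.86, then 3.63, 4.56 and 4.61. The groups did not overlap, and the difference was 1.62 (95% interval 0.84 to 2.40, adjusted p = 0.161). SREBF1 passed without synchronized array 1 (adjusted p = 0.0308). Without each of the other 5 arrays its adjusted p lay between 0.117 and 0.294. After a second quantile normalization the adjusted p was 0.428 for SREBF1 and 0.717 for INSIG2.

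Both genes were read from 1 probe set each: the other 3 of SREBF1 lay between 2.24 and 2.58 and the other 2 of INSIG2 between 2.35 and 4.26, with differences of -0.35 and -0.15. PGRMC1, a haem-binding partner of sterol enzymes, went the other way, with 2.99, 3.07 and 2.87, then 3.60, 4.24 and 3.20 (difference -0.70, adjusted p = 0.636). SREBF2, the gene of SREBP-2 itself, stayed below log2 4 on both of its probe sets, between 2.62 and 3.52.

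In the uptake and handling list 1 of 14 genes exceeded log2 4. MYLIP, a ubiquitin ligase that restrains lipoprotein uptake, read 2.96, 3.08 and 4.12, then 3.23, 5.00 and 3.23. Its high arrays were again superovulated array 3 and synchronized array 2. The other MYLIP probe set lay between 2.55 and 2.62. The 9 measured genes of the isoprenoid branch, which feeds protein prenylation and ubiquinone, all stayed below log2 4, with 0 called.

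Of 8 measured fatty acid genes regulated by SREBP, 3 exceeded log2 4 and 0 passed. ACLY makes the cytosolic acetyl-CoA that both sterol and fatty acid synthesis use. It read 2.70, 3.41 and 5.03, then 3.23, 5.74 and 3.48, again highest on superovulated array 3 and synchronized array 2. FASN, fatty acid synthase, read 5.63, 6.22 and 5.49, then 5.13, 4.87 and 5.10, higher on every superovulated array by a mean of 0.75 (adjusted p = 0.471). ELOVL6, a fatty acid elongase, read 4.45, 3.67 and 3.79, then 3.73, 3.60 and 3.44, and the groups overlapped.

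**Figure D3:**
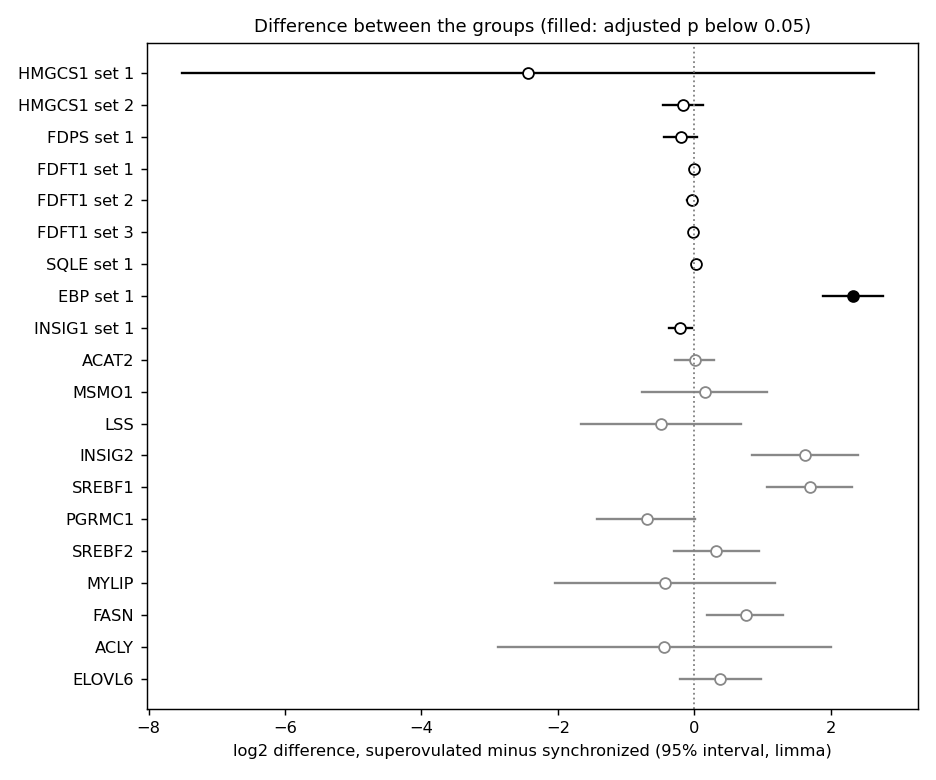
Log2 difference, superovulated minus synchronized, with its 95% interval from limma (horizontal axis) for the 9 probe sets (black) and for other named sterol and fatty acid genes (grey); filled points passed an adjusted p of 0.05. EBP at 2.33 is the filled point, SREBF1 (1.69) and INSIG2 (1.62) lie to the right without passing, and the interval of HMGCS1 runs from -7.51 to 2.63.

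Beyond the 7 genes, 10 listed genes exceeded log2 4 on an array, and their correlations with HMGCS1 are given as descriptions. ACLY had r = 0.911 and rho = 0.943 over the 6 arrays, and MYLIP r = 0.885 and rho = 0.986. Without superovulated array 1 and synchronized array 2, r was 0.730 for ACLY and 0.749 for MYLIP, over 4 arrays. Both genes, and MSMO1, exceeded log2 4 on superovulated array 3 and synchronized array 2 alone. All of them were thus admitted through the arrays where HMGCS1 was highest in each group. On the other 4 arrays ACLY lay at 2.70 to 3.48 and MYLIP at 2.96 to 3.23, near background. Their r over the 6 arrays therefore rests largely on superovulated array 3 and synchronized array 2 standing apart. Their rho rests partly on the order of values near background. MSMO1 had r = 0.647, and the other 7 genes ranged from -0.652 for FASN to 0.544 for PGRMC1.

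The genes most like HMGCS1 over the 6 arrays were taken from probe sets above log2 4 on at least 1 array with a range of at least 2 log2 units. The 6 with the highest Pearson r were ARF4 (0.998), a small GTPase of Golgi traffic, the homeobox gene MSX1 (0.997), PRICKLE1 (0.994) of planar cell polarity, the neutral amino acid transporter gene SLC38A2 (0.992), the collagen lysyl hydroxylase gene PLOD2 (0.981) and LDHA (0.980), which interconverts pyruvate and lactate. In all 6 the arrays stood in the same order as for HMGCS1. PRICKLE1 read 3.17, 4.01 and 7.78, then 5.10, 10.38 and 7.74, almost the levels of HMGCS1 itself. LDHA, the least bright of the 6 on average, read 3.18, 3.46 and 7.29, then 3.96, 8.01 and 5.95.

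None of these 6 is an enzyme of sterol synthesis. As for HMGCS1, each likeness rests on 1 probe set: the other probe sets of MSX1, PRICKLE1, SLC38A2, PLOD2 and LDHA lay between 2.38 and 3.61, and ARF4 had 1. The pattern was common among variable probe sets. Of 1038 such probe sets other than HMGCS1, 126 (12.1%) had r above 0.9 with it, 47 had the 6 arrays in the same order, and 587 (56.6%) were highest on superovulated array 3 and synchronized array 2 within their groups. To enter, a probe set had to exceed log2 4 on at least 1 array. In each group these were the arrays with the most probe sets above log2 4. Peaks there, and a high r with HMGCS1, may thus be partly built in by the filter.

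**Figure D4:**
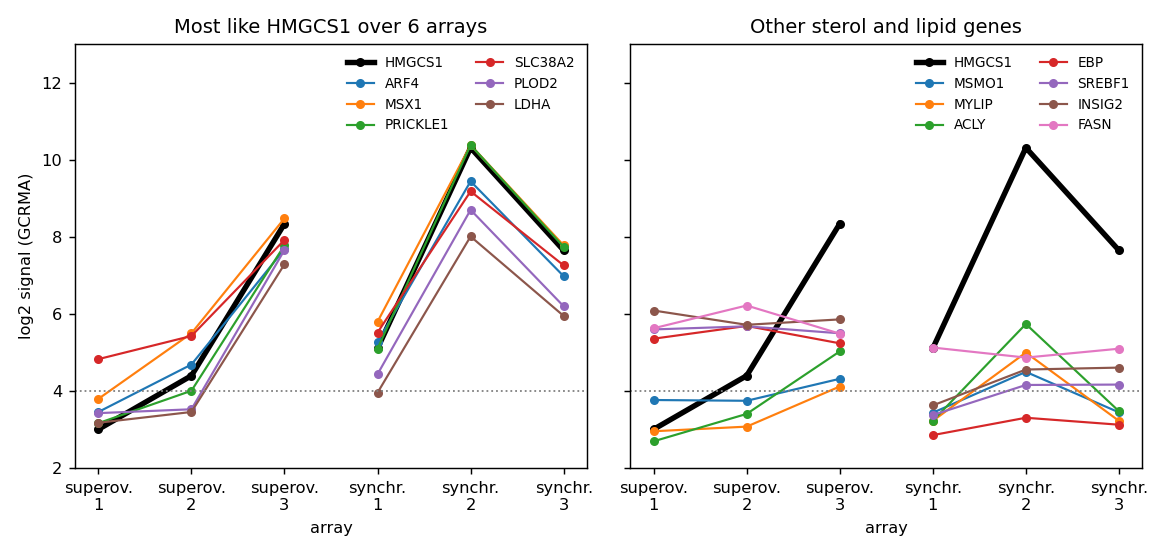
Log2 signal (vertical axis) on the 6 arrays (horizontal axis; lines join arrays of a group only to make genes comparable, since replicates have no order) for HMGCS1 in black with the 6 genes most like it on the left and 7 other sterol and lipid genes on the right; the dotted line is log2 4. On the left all genes peak on superovulated array 3 and synchronized array 2; on the right ACLY, MYLIP and MSMO1 peak there at lower levels, while EBP, SREBF1, INSIG2 and FASN are higher on the superovulated arrays.

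Part of the oocyte, cumulus and granulosa markers were highest on superovulated array 3 and synchronized array 2, as HMGCS1 was within the groups. Among markers above log2 4 on an array this held for 3 of 3 oocyte genes and 5 of 8 cumulus and granulosa genes. The share among the variable probe sets given above was 56.6%, but those also had to range over at least 2 log2 units. ZP2 and ZP4 exceeded log2 4 on superovulated array 3 and synchronized array 2 alone. PTX3, HSD3B1 and FST did so on synchronized array 2 alone. These markers were thus admitted through the arrays on which they are counted. TNFAIP6, a protein of the cumulus matrix, read 3.05, 2.99 and 7.38, then 4.25, 8.47 and 5.96 (r = 0.979 and rho = 0.943 over 6 arrays). The other TNFAIP6 probe set lay between 2.39 and 2.43. INHA, the inhibin subunit of granulosa cells, read 4.79, 4.85 and 6.64, then 4.85, 6.79 and 4.87, so that superovulated array 3 and synchronized array 2 stood apart from the other 4. ZP2, a coat protein of the oocyte, read 3.31, 3.44 and 4.83, then 2.78, 6.14 and 3.94 (r = 0.885, rho = 0.829). Without superovulated array 1 and synchronized array 2, r was 0.979 for TNFAIP6 and 0.847 for ZP2. The oocyte importin gene KPNA7 read 5.94, 5.98 and 7.78, then 4.04, 9.02 and 6.11 (r = 0.761, rho = 0.829), and r was 0.701 without those arrays. These r are descriptions of genes already known to vary in this way.

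The other 3 cumulus and granulosa genes above log2 4 had other patterns. PTGS2, the prostaglandin synthase of the cumulus, read 4.74, 4.47 and 3.88, then 2.86, 3.16 and 3.21, higher on every superovulated array. HAS2, which makes the hyaluronan of the cumulus matrix, read 3.78, 4.05 and 3.65, then 3.66, 3.44 and 3.58. FOXL2, a granulosa transcription factor, read 3.21, 2.91 and 2.61, then 4.18, 3.03 and 2.72. All 3 were lowest of their group on superovulated array 3, and none was highest on synchronized array 2. Each was read from its brightest probe set. The others lay at 2.71 to 2.87 for PTGS2, 2.34 to 3.32 for HAS2 and 2.57 to 2.66 for FOXL2.

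Of 20 measured cumulus and granulosa markers, 8 exceeded log2 4 on an array; the summed linear signal of the 20 was 189 to 423 on the superovulated arrays and 205 to 667 on the synchronized arrays, with the top of each range on superovulated array 3 and synchronized array 2. Of the genes of granulosa steroid synthesis, CYP11A1 (2.33 to 2.65), STAR (3.03 to 3.39) and all 4 probe sets of CYP19A1 (2.43 to 3.38) stayed at background. HSD3B1, also of steroid synthesis, read 3.08, 3.15 and 3.30, then 3.17, 4.58 and 3.10, above log2 4 on synchronized array 2 alone. The FSH receptor gene FSHR (2.67 to 2.75) stayed at background. Of 9 oocyte markers, 3 exceeded log2 4, and the summed signal of the 9 was 111 to 301 and 67.1 to 681, again highest on the same arrays. GDF9 (2.57 to 2.85) and BMP15 (2.37 to 3.08), defining oocyte genes, were at background. Whether oocyte, cumulus or granulosa cells were present was not tested. Nor was any part of such cells, or of the number of bright probe sets, in the HMGCS1 signal.

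Several markers of the blastocyst were higher on the arrays where EBP was. KRT18, a trophectoderm keratin, read 7.96, 8.11 and 7.74, then 3.55, 3.68 and 4.90. Of 10 measured trophectoderm and inner cell mass markers 2 rose, KRT18 by 3.89 (limma adjusted p = 0.0410) and DAB2 by 2.21 (adjusted p = 0.0387), where 1.32% of all genes were called. DAB2 rested on 1 of its 2 probe sets; the other differed by -0.13. GATA6, a factor of the primitive endoderm, read 6.94, 7.00 and 6.41, then 3.95, 5.21 and 4.83, and did not pass (adjusted p = 0.141). The other 7 stayed below log2 4, and the median difference of the 10 was 0.25. The summed signal of the 10 was 380 to 488 and 76.4 to 111, with no overlap. KRT18 and GATA6 made up 78.7% to 82.8% of it on the superovulated arrays and 35.5% to 52.8% on the synchronized arrays. Defining markers without measurable signal were KRT8, SOX2 and POU5F1, at or below 3.54, while CDX2, GATA3 and NANOG had no probe set under their symbols. KRT8 and SOX2 each differed by -0.01. POU5F1 was higher on every superovulated array, by a mean of 0.81 near background, and did not pass (limma adjusted p = 0.0886). The part of this shift in the EBP difference was not tested.

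The epithelial genes EPCAM (7.12 to 7.83, then 4.64 to 5.50) and C3 (5.29 to 5.95, then 2.78 to 3.38) were also higher on every superovulated array, C3 on 1 of its 3 probe sets. C3 passed (limma adjusted p = 0.0373), where 1.32% of all genes were called, and EPCAM did not (adjusted p = 0.0576). The summed signal of the 10 measured oviduct and uterus markers, which include both, was 230 to 339 and 86.1 to 102. The other 8 stayed below log2 4 on every array, and the median difference of the 10 was -0.03. The oviductal gene OVGP1 stayed at 2.19 to 2.26. Of 11 blood markers, 1 exceeded log2 4, the haemoglobin gene HBM on synchronized array 1 at 4.60, and the summed signal was 72.2 to 75.2 and 73.5 to 95.3.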

How the data were processed

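The authors deposited 1 log2 expression value per probe set and array of the Affymetrix GeneChip Bovine Genome Array. Per the submitters' processing notes the values were made with GCRMA (background correction, normalization, probe summary); the sources used here do not state whether the 6 arrays were normalized jointly. GCRMA compresses values near background. Per the labels' protocols, the RNA was amplified, with biotin added in the second transcription round. Scanner intensities were not analysed here.

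The 112 control probe sets were set aside, leaving 24016. Symbols came from GEO's platform annotation; the gene identifiers of all 9 probe sets carried the same symbol in RefSeq. The group difference was fitted with limma 3.58.1 under R 4.3.3 (lmFit, eBayes, two-sided, Benjamini-Hochberg over 24016 probe sets, called below 0.05), tested on simulated data. A listed gene was read from its probe set with the highest mean. Correlations used all 720 pairings of the arrays, or the 36 orders within groups, two-sided. The smallest p these allow are 0.00139 and 0.0278. Correlations of listed genes and markers were added after the values were seen and carry no test. 3 arrays per group limit the precision.

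The 7 genes and all lists were chosen with earlier results of these data known. Named in the text are all 7 genes; per lipid list up to 8 genes called or above log2 4 on an array, with SREBF2 in any case (other genes fixed by that rule are not reported here); the 6 genes most like HMGCS1; and per cell type list up to 4 with the highest value. Marker genes at background, and other markers above log2 4 on an array, were named beyond this rule. Alternatives were other scalings, a filter on dim probe sets, an intensity trend, the replicate number as a block, other probe set summaries and leaving out arrays.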

Additional observations from a re-analysis of the deposited data

How the results depend on the processing

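EBP remained higher in the superovulated group in all 13 alternatives, with differences from 1.64 to 2.53 and adjusted p from 0.00204 to 0.159; it passed in 5 of them. The count of the 9 probe sets called was 1. It was 0 after a second quantile normalization, 0 without both superovulated array 3 and synchronized array 2 (chosen after seeing the data), 2 after centring on bright probe sets, and 0 to 1 without 1 array. The count of the 40 listed genes called, also 1, was 0, 0 and 3 in the same order, 0 to 1 without 1 array, and 3 of 5 in a test of bright probe sets alone (EBP, SREBF1 and INSIG2); in that test 31.4% of the 1406 probe sets were called and their median difference was 0.59, and EBP and SREBF1, with synchronized means of 3.10 and 3.90, entered it through the superovulated arrays. Centring on bright probe sets moved the median difference of all probe sets from -0.02 to -0.72, so that EBP at 1.64 stood 2.36 above it, and limma then gave every probe set the same spread, an SD of 0.470. Against that spread HMGCS1 passed at -3.13, although its own SD within groups was 2.68. SQLE turned to -0.67 there and to -0.01 without both arrays, and 1 FDFT1 probe set turned to 0.01 after median centring. The median r with HMGCS1 was -0.11 after the second quantile normalization, 0.03 after centring on bright probe sets, 0.07 with the probe sets of a gene averaged, and 0.28 to 0.74 without 1 array. The replicate numbers did not pair the arrays: over 1406 bright probe sets the deviations of same-numbered arrays correlated at 0.601 for number 1, -0.543 for number 2 and -0.438 for number 3, while superovulated array 3 and synchronized array 2 correlated at 0.736; with the replicate number as a block 0 of the 9 probe sets and 0 of the 40 genes were called, and 0 of all 24016.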

Other observations

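Past the 6 genes named for likeness, further genes with r of 0.977 to 0.980 against HMGCS1 included the following, chosen after their values were seen. HIF1A, the oxygen-regulated transcription factor subunit, read 3.37, 3.73 and 8.54 (superovulated 1 to 3), then 5.14, 9.47 and 6.68 (synchronized 1 to 3). P4HA1, a collagen prolyl hydroxylase subunit, read 2.39, 2.57 and 4.16, then 2.70, 5.46 and 3.87. VAPA, an endoplasmic reticulum protein that anchors lipid transfer proteins at membrane contacts, read 3.11, 3.57 and 5.57, then 3.54, 7.34 and 5.20. The chromatin remodelling ATPase gene SMARCA1 read 2.60, 3.10 and 8.24, then 5.13, 9.03 and 7.04. Each of these genes was read from 1 probe set, and any other probe sets of theirs are not given here.

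Synchronized array 1 was the 1 array above log2 4 for both LSS (4.31) and the haemoglobin gene HBM (4.60). It also had the fewest probe sets above log2 4, 973.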
